A study of Homo sapiens with 6 samples.

Results

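KRTAP1-5, KRTAP2-3 and KRTAP2-4 are keratin-associated protein (KRTAP) genes on chromosome 17. They make up 3 of the 33900 genes measured, and were chosen because their falls after rhSema3C treatment were among the largest. Their differences between the groups are therefore given below as a description, with no test. RNA sequencing compared 3 samples of LX-2 cells stimulated with rhSema3C with 3 control samples of the same cells given PBS, both for 48 h. The LX-2 line was derived from human hepatic stellate cells, the pericytes of the liver sinusoid, and the labels give its genotype as WT. The dose of rhSema3C, the recombinant human form of the secreted guidance protein Sema3C, was 300 ng/ml. All 6 samples came from 1 cell line, so the comparison covers that line alone.

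Keratin-associated proteins form the matrix of the hair shaft, where they bind hair keratin filaments and cross-link them through disulfide bonds. The KRTAP1 and KRTAP2 families are classed as high-sulfur proteins and the KRTAP4 family as ultrahigh-sulfur proteins, after their cysteine content. Their genes are short, have no introns and lie as a cluster inside the type I keratin gene cluster. No function of these proteins in hepatic stellate cells is described in the sources used here.

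The 3 genes were all on the minus strand of GRCh38 and each had a single exon in GENCODE 29, with no other annotated gene overlapping them. KRTAP1-5 (ENSG00000221852) lay at chr17:41026026-41027208, KRTAP2-3 (ENSG00000212724) at chr17:41059240-41060114 and KRTAP2-4 (ENSG00000213417) at chr17:41065116-41065879. The coding parts held 174 codons in KRTAP1-5 and 128 codons in both KRTAP2-3 and KRTAP2-4. The 3′ UTRs were 605 bases long in KRTAP1-5, 424 in KRTAP2-3 and 343 in KRTAP2-4.

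The 100 bases upstream of each annotated start are shown because the genes moved together, with those of KRTAP1-1, a neighbour that was near 0 in every sample. They are RefSeq sequences of GRCh38.p14 read on the minus strand, 5′ to 3′, and capitals mark the letters TATAAA, the core of a TATA box. They span chr17:41027209-41027308 for KRTAP1-5, chr17:41060115-41060214 for KRTAP2-3, chr17:41065880-41065979 for KRTAP2-4 and chr17:41041451-41041550 for KRTAP1-1.
KRTAP1-5: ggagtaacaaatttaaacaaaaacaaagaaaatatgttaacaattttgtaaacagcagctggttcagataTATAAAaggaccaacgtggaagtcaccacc
KRTAP2-3: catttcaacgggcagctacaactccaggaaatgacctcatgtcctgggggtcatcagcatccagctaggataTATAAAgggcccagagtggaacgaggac
KRTAP2-4: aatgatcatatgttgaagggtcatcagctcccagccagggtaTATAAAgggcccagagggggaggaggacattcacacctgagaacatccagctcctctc
KRTAP1-1: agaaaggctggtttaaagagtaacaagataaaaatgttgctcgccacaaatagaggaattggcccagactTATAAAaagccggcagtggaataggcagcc

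TATAAA began 30 bases before the annotated start in KRTAP1-5, 28 bases in KRTAP2-3 and 58 bases in KRTAP2-4. It also began 30 bases before the start of KRTAP1-1. Read on either strand of the 250 bases upstream, these letters were present in 16 of the 17 KRTAP genes of chromosome 17 and in 10.7% of 35116 RefSeq promoters. KRTAP2-3 and KRTAP2-4 shared a run of 18 bases over this stretch, and their 250 upstream bases were 51% identical. In the same 250 bases of the 3 genes, both strands read, the TEAD letters GGAATG, the AP-1 letters TGANTCA and the CArG box, which can itself hold TATAAA, did not occur. They occurred in 11.9%, 6.57% and 1.16% of all promoters, respectively. The TCF/LEF letters CTTTGA occurred once upstream of KRTAP1-5, in 5 of the 17 KRTAP genes of chromosome 17 and in 11.2% of all promoters, and did not occur upstream of KRTAP1-1. A match or its absence describes these letters only.

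The coding parts of KRTAP2-3 and KRTAP2-4 were identical at 383 of 384 bases, which bears on how reads can be assigned to each. The surrounding GENCODE 29 transcript sequence is shown with the single differing base in capitals, at chr17:41059688-41059748 for KRTAP2-3 and chr17:41065483-41065543 for KRTAP2-4.
KRTAP2-3: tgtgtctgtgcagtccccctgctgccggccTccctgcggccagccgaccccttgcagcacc
KRTAP2-4: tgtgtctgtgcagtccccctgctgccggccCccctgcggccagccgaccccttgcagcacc

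This base is the third of codon 111 and leaves the encoded amino acid the same. The 3′ UTRs of both genes aligned with only 49.7% identity. Of the 75-base windows along the KRTAP2-3 transcript, 36.1% were also found in KRTAP2-4, and 41.9% of those along KRTAP2-4 were found in KRTAP2-3. None of the 1103 windows of KRTAP1-5 was found in another KRTAP transcript of chromosome 17. With 150-base windows the shares between KRTAP2-3 and KRTAP2-4 were 29.5% and 34.8%, in the same order. The division of counts among the KRTAP2 genes is therefore uncertain, whereas KRTAP1-5 shared no such window.

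Each sample held between 68267808 and 89245585 counts on genes. The share of mitochondrial counts was between 4.75% and 5.42% in PBS and between 3.73% and 3.93% in rhSema3C, so it differed between the groups in the same samples as every value below, and its part in them was not tested. Of the 14178 genes whose mean reached 0.5 FPKM, the authors' length-scaled unit, 62.3% passed an adjusted p of 0.05 in the edgeR quasi-likelihood test in either direction. LX-2 markers were checked against the label: VIM was at 1035 FPKM in PBS, COL1A1 at 96.0 and THY1 at 24.4, while COL1A2, DES and DCN were at 0.130, 0.0072 and 0.0098. Of the 12 stellate or mesenchymal markers, 9 were tested, of which 6 fell, where 30.6% of all genes tested were called lower, and LOX rose by 1.05 on the log2 scale. Their summed level was between 1297 and 1348 FPKM in PBS and between 1040 and 1105 FPKM in rhSema3C.

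KRTAP2-3 was the most abundant KRTAP gene of the cluster in every sample. In CPM, counts scaled to a common library size with TMM factors, its level was 23.6, 22.4 and 24.2 in the PBS samples and 2.76, 1.74 and 2.64 in the rhSema3C samples, given here and below in the order of replicates 1, 2 and 3. The groups were far apart: the lowest PBS sample was 8.11 times the highest rhSema3C sample. The mean was 23.4 ± 0.926 CPM in PBS and 2.38 ± 0.557 CPM in rhSema3C (SD, n = 3), a log2 difference of -3.30 (SE 0.16). These values rested on 1567 to 2031 counts per PBS sample and 160 to 239 counts per rhSema3C sample.

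KRTAP2-4, whose coding part encodes the same protein as that of KRTAP2-3, was present at a lower level. It measured 2.05, 2.63 and 2.18 CPM in the PBS samples and 0.358, 0.163 and 0.239 CPM in the rhSema3C samples. All PBS samples again lay above all rhSema3C samples, the closest pair differing 5.72 times. The means were 2.28 ± 0.305 and 0.253 ± 0.0981 CPM (SD, n = 3), with a log2 difference of -3.17 (SE 0.31), and the rhSema3C samples held 31, 15 and 20 counts.

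KRTAP1-5, of a different high-sulfur family, measured 2.95, 2.93 and 1.94 CPM in the PBS samples and 0.589, 0.152 and 0.191 CPM in the rhSema3C samples. The groups did not overlap, but they lay closer together than for the KRTAP2 genes, the closest pair differing 3.29 times. The means were 2.61 ± 0.580 and 0.311 ± 0.242 CPM (SD, n = 3), with a log2 difference of -3.07 (SE 0.44). Its rhSema3C counts were 51, 14 and 16, so that replicate 1 was 3.86 times replicate 2. Without rhSema3C replicate 1 the log2 difference of KRTAP1-5 was -3.92. That sample was the highest of its group for all 3 genes.

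Every rhSema3C sample was below every PBS sample for 3 of the 3 genes, as for 33.3% of all genes tested, and the choice of the genes fixes this count. KRTAP2-3 passed the filter on low levels in both groups, at 25.2 ± 1.13 FPKM in PBS and 2.74 ± 0.644 FPKM in rhSema3C (SD, n = 3). KRTAP1-5 and KRTAP2-4 passed it through the PBS samples alone, with rhSema3C means of 0.261 and 0.326 FPKM against PBS means of 2.07 and 2.81 FPKM. In bulk RNA, fewer cells that express a gene and less RNA per cell cannot be told apart.

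**Figure D1:**
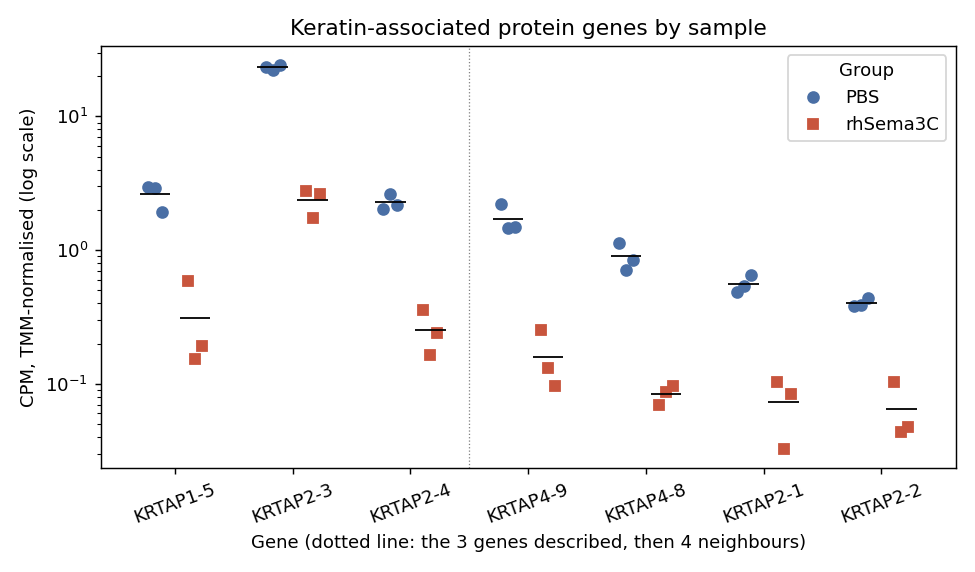
Points are single samples, on a log axis of TMM-normalised CPM, and black lines are group means (n = 3). For KRTAP1-5, KRTAP2-3, KRTAP2-4 and the neighbours KRTAP4-9, KRTAP4-8, KRTAP2-1 and KRTAP2-2, every PBS sample lies above every rhSema3C sample.

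By size of fall, KRTAP2-3, KRTAP2-4 and KRTAP1-5 held ranks 6, 7 and 8 among the 14178 genes tested. The genes were chosen for the size of these falls, so this order and the next describe that choice and test nothing. Among genes called lower, with a mean level of 1 FPKM or more and groups that did not overlap, they followed NPPB, the gene of the B-type natriuretic peptide (log2 difference -3.85). The next gene after them was TAGLN, the gene of transgelin, a protein that binds actin (-2.70). Short genes as a class lay near 0: the median log2 difference was 0.01 over 1551 genes with an implied length under 1300 bases and 0.02 over all genes tested. Of these short genes 16.1% were called lower, against 30.6% of all genes tested.

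**Figure D2:**
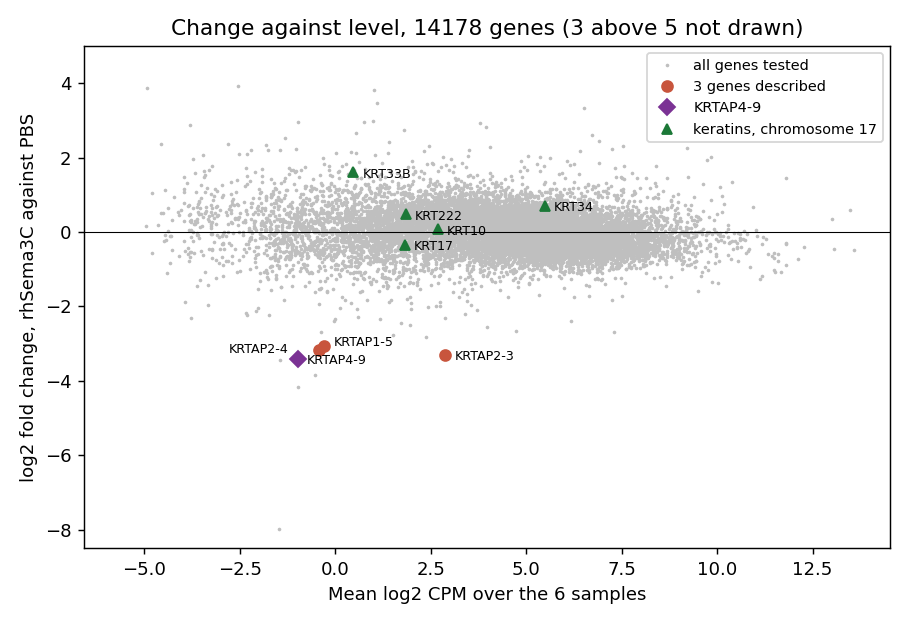
Each grey point is 1 of 14178 genes tested, placed by its mean log2 CPM over the 6 samples and its log2 fold change, rhSema3C against PBS; 3 genes above 5 are not drawn. KRTAP2-3, KRTAP2-4, KRTAP1-5 and KRTAP4-9 lie between -3.07 and -3.41, and the chromosome 17 keratins between -0.35 and 1.60.

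The ratios among the 3 genes were of a similar size in both groups. In FPKM, which allows levels of different genes to be compared, KRTAP2-3 was 10.1, 7.45 and 9.74 times KRTAP2-4 in the PBS samples and 6.92, 9.85 and 9.67 times in the rhSema3C samples. The ranges of this ratio overlapped between the groups. KRTAP2-3 was 10.8, 10.4 and 16.9 times KRTAP1-5 in PBS and 6.42, 15.6 and 19.0 times in rhSema3C, again with overlap and with the lowest ratio in rhSema3C replicate 1. Together the 3 genes held between 85.5% and 88.9% of all KRTAP counts of chromosome 17 in each of the 6 samples.

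Because reads that lie within a shared window cannot be assigned to 1 KRTAP2 gene by sequence, the counts were also summed. KRTAP2-3 and KRTAP2-4 as a single gene gave a log2 difference of -3.29 (SE 0.16). KRTAP2-3 took 89.0%, 86.3% and 88.1% of the counts of the 4 KRTAP2 genes in PBS and 83.0%, 87.9% and 87.7% in rhSema3C. The summed counts of the 3 chosen genes differed by -3.27 (SE 0.17), and those of all 17 KRTAP genes of chromosome 17 by -3.25.

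The other KRTAP genes of the cluster were lower still. Of the 34 protein-coding KRTAP genes that GENCODE 29 places on chromosome 17, 17 were measured here, and 4 of these passed the filter: the 3 chosen genes and KRTAP4-9, an ultrahigh-sulfur family member. KRTAP4-9 measured 2.20, 1.46 and 1.48 CPM in PBS and 0.254, 0.131 and 0.0956 CPM in rhSema3C. All PBS samples lay above all rhSema3C samples, as for 33.3% of all genes tested. The fall of KRTAP4-9 was 3.41 on the log2 scale (SE 0.37, edgeR quasi-likelihood adjusted p = 1.26e-05), beside 30.6% of genes tested that were called lower. KRTAP4-9 also passed the filter through its PBS samples alone, at 1.39 FPKM against 0.136 FPKM in rhSema3C, so it was also tested with no filter, where it fell by 3.42 (SE 0.41, edgeR adjusted p = 0.000206). Its mean over the 6 samples was 0.762 FPKM, below that of each chosen gene.

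With no filter on low levels, 12.3% of all 33900 genes were called lower by edgeR, and 3 further KRTAP genes of chromosome 17 were among them. KRTAP4-8, whose coding part is 84.1% identical to that of KRTAP4-9, had 97, 50 and 56 counts in PBS and 6, 8 and 8 counts in rhSema3C, and fell by 3.41 on the log2 scale (SE 0.41, edgeR adjusted p = 0.00021). KRTAP2-1 had 42, 38 and 43 counts against 9, 3 and 7, and fell by 2.92 (SE 0.55, edgeR adjusted p = 0.0032). KRTAP2-2 had 33, 27 and 29 counts against 9, 4 and 4, and fell by 2.61 (SE 0.60, edgeR adjusted p = 0.010). For each of these genes every rhSema3C sample was below every PBS sample. This held for 33.3% of the 14178 genes that passed the filter, which these genes did not, and the share over all 33900 genes was not computed. The coding parts of KRTAP2-1 and KRTAP2-2 are 99.5% and 95.8% identical to that of KRTAP2-3. Of the 75-base windows of KRTAP2-3, 28.5% and 27.5% occur in them. Of their own windows, 58.3% and 55.1% occur in another KRTAP transcript of chromosome 17, and 32.5% and 33.4% in that of KRTAP2-3. Reads within shared windows cannot be told apart, and whether these 2 falls are separate from that of KRTAP2-3 was not tested. Neither KRTAP4 gene shared a 75-base window with the 3 chosen genes, but they shared 76 such windows with each other, and 1 window of 150 bases. Of the 75-base windows of KRTAP4-8 and KRTAP4-9, 11.6% and 16.7% occur in another KRTAP transcript of chromosome 17.

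The remaining 10 KRTAP genes of chromosome 17 (KRTAP1-1, KRTAP3-2, KRTAP4-2, KRTAP4-7, KRTAP4-11, KRTAP4-12, KRTAP4-16, KRTAP9-4, KRTAP9-6 and KRTAP9-9) had between 2 and 34 counts over all 6 samples. Without the filter, the lowest edgeR adjusted p among them was 0.167, for KRTAP4-11. KRTAP1-1, which lies between KRTAP1-5 and KRTAP2-1, had 8 counts in PBS replicate 1 and 0 in every other sample. KRTAP4-7 reached 34 counts through 24 counts in PBS replicate 2. A difference in these genes was not detectable at this depth. Such low counts may stand for fewer fragments. Of 4860 values from 1 to 12 in protein-coding genes, 53.1% were 4, 8 or 12, where 25% would be even. The same limit applies to the rhSema3C counts of KRTAP4-8, KRTAP2-1 and KRTAP2-2 and to some of those of KRTAP4-9, and so to their adjusted p. The rhSema3C counts of KRTAP1-5 and KRTAP2-4, from 14 to 51, lay above the values examined. Whether they too stand for fewer fragments was not tested.

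On one side of the KRTAP genes, the type I keratins KRT33B and KRT34 differed in the opposite direction. On the other side KRT222 also rose, a call that did not hold in every fit, and KRT10 did not pass the test. Of 17 keratin genes measured on chromosome 17, 5 were tested, of which 3 rose, where 31.7% of all genes tested were called higher, and the other 2 did not pass the test. KRT34, a type I hair keratin, measured 36.6, 34.1 and 35.1 CPM in PBS and 58.6, 56.1 and 57.8 CPM in rhSema3C, and rose by 0.70 on the log2 scale (SE 0.06, edgeR adjusted p = 1.04e-06). Per length, KRT34 was at 19.0 FPKM in PBS, below KRTAP2-3, and at 33.2 FPKM in rhSema3C, above it. KRT33B, also a type I hair keratin, rose by 1.60 (SE 0.35, edgeR adjusted p = 0.0019) from 0.487 to 1.60 FPKM. It passed the filter through its rhSema3C samples alone, and with no filter its edgeR adjusted p was 0.012. KRT222 rose by 0.47 (SE 0.17, edgeR adjusted p = 0.032), a call that was lost without PBS replicate 1, PBS replicate 3, rhSema3C replicate 1 or rhSema3C replicate 2, which left 2 keratins past the test. KRT10, a keratin of the upper epidermis, and KRT17, a keratin of stressed and basal epithelium, differed by 0.07 and -0.35 on the log2 scale and did not pass the test.

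Within 500 kb of the 3 chosen genes, 8 genes other than KRTAP genes were tested. Of these 8, 3 were called higher (KRT222, KRT33B and KRT34), where 31.7% of all genes tested were, and 1 lower, where 30.6% were. TMEM99, which overlaps KRT10 on the other strand, was the 1 that fell, by 0.38 (edgeR adjusted p = 0.0019). The strand setting of the counting is not given, so reads of these overlapping genes may not be told apart. SMARCE1, a subunit of a chromatin remodelling complex, differed by 0.03 and did not pass the test, nor did KRT10 and both genes named AC073508. The lowest of these 8 values was -0.40, while the KRTAP genes tested lay between -3.07 and -3.41.

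Other genes of the hair programme lay closer to 0 or rose. Of 12 hair shaft markers, 5 were tested, of which 2, KRT33B and KRT34, rose, a share near the 31.7% of all genes tested that were called higher, and KRT81 (-0.12), KRT86 (0.37) and the transcription factor HOXC13 (0.16) did not pass the test. Their summed level was between 33.3 and 35.0 FPKM in PBS and between 49.3 and 51.4 FPKM in rhSema3C, mostly KRT34. Among hair follicle regulators, 4 of 7 were tested and 1 was called lower, where 30.6% of all genes tested were. This was GATA3, which fell by 0.36 (edgeR adjusted p = 0.036), while HOXC13, LEF1 (0.05) and MSX2 (-0.19) did not pass. S100A3, a calcium-binding protein of the hair cuticle, rose by 0.58 (edgeR adjusted p = 0.0034), and the protein-modifying enzyme PADI3 (-0.16) did not pass. The median log2 difference of the tested hair shaft markers was 0.37 and that of the regulators -0.07, beside 0.02 over all genes tested.

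Of 26 type II keratins listed, 6 were tested, of which 2 fell, a share near the 30.6% of all genes tested that were called lower. KRT80 fell by 1.35 (SE 0.10, edgeR adjusted p = 5.73e-07) and KRT8, a keratin of simple epithelia, by 0.54 (SE 0.05, edgeR adjusted p = 2.01e-06). The others did not pass, and the median of the 6 was -0.25. Of 12 keratinisation genes only KRT10 and TGM1, a transglutaminase of the epidermal envelope (0.57), were tested, and neither passed.

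Apart from KRT10, the listed markers of keratinocytes and other epithelial cells that were measured lay near 0. Of 8 such markers only KRT10 passed the filter, and TP63, CDH1, EPCAM and DSG3 each had a mean below the filter of 0.5 FPKM, with TP63 at 0.0125 FPKM in PBS and 0.0082 FPKM in rhSema3C. The summed level of the list was between 2.76 and 2.92 FPKM in PBS and between 2.54 and 3.66 FPKM in rhSema3C. KRT8, the keratin of simple epithelia named above, was not on this list and was at 33.7 FPKM in PBS and 24.9 FPKM in rhSema3C. Of the hepatocyte markers, SERPINA1 was tested and rose by 0.37 (edgeR adjusted p = 0.0066), and ALB was at 0.0103 FPKM in PBS and 0 in rhSema3C.

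The genes most like the chosen ones were found by the Euclidean distance between log2 CPM values, each centred on the gene's own mean over the 6 samples. For KRTAP2-3 the nearest of 14178 genes was KRTAP2-4 (distance 0.536), followed by ST6GALNAC5, a sialyltransferase (0.716), ACTG2, the smooth muscle gamma-actin (0.975), TAGLN (0.987) and the growth factor FGF1 (0.999). For KRTAP2-4 they were KRTAP2-3 (0.536), ST6GALNAC5 (0.596), KRTAP1-5 (0.912), FGF1 (1.01) and ACTG2 (1.02). For KRTAP1-5 they were KRTAP4-9 (0.902), KRTAP2-4 (0.912), KRTAP2-3 (1.28), ST6GALNAC5 (1.29) and FGF1 (1.59). All points share the same 6 libraries, and the distance includes the gap between the groups that chose the genes. The log2 differences of ST6GALNAC5, ACTG2 and FGF1 were -2.76, -2.65 and -2.55.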

How the data were processed

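Libraries of 6 LX-2 samples, made with a kit for mRNA, were sequenced, and the labels call the samples biological replicates. Whether they came from separate cultures is not given, so p-values measure the spread between these samples, which may be technical. The authors deposited counts in whole numbers, not normalised, and FPKM values, which are scaled to transcript length and library size. The study names Cufflinks and cuffmerge. The aligner and the strand setting are not given in the sources used here. The table's starts of the 3 genes were those of GRCh38. The number of sample columns left unused was 0.

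Counts were scaled by TMM and tested with edgeR 4.0.16 (quasi-likelihood) in R 4.3.3 on genes whose mean reached 0.5 FPKM, with Benjamini-Hochberg adjustment over all 14178 genes and a threshold of 0.05. Each SE printed with a log2 difference is the size of that difference divided by the square root of its quasi-likelihood F statistic. For the 3 chosen genes it is given as a description only. The script was tested on simulated data. Alternatives used DESeq2 1.42.0, limma 3.58.1 on log2 FPKM or TPM, other filters, a length trend, summed paralogs, and each sample left out. Replicates of a group differed by more than counting noise (chi-square per degree of freedom 16.0 to 27.9). Sequence identity used Biopython 1.88 global alignments, and plots used matplotlib 3.10.9.

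The 3 genes and the gene lists were chosen with earlier results of these data known. Genes named are the 3, the other KRTAP genes measured on chromosome 17, genes tested within 500 kb, the 5 nearest in pattern, neighbours in rank, and for each list its extremes or, with 5 or fewer tested, all of these. Further members of longer lists, chosen after their values were seen, are KRT8 and the markers VIM, COL1A1, COL1A2, DES, DCN, TP63, CDH1, EPCAM, DSG3 and ALB. Protein sequences were not used here.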

Additional observations from a re-analysis of the deposited data

How the results depend on the processing

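The differences of KRTAP1-5, KRTAP2-3 and KRTAP2-4 stayed negative under every alternative. They were smaller on a log scale with a pseudocount: -1.28, -2.82 and -1.52 with limma on log2(FPKM + 1), and -2.08, -2.98 and -2.28 with limma on log2(TPM + 1). A pseudocount of 1 compresses low values by construction, and the median of all genes was 0.23 on the TPM scale and 0.13 with library size alone, against 0.02. With each sample left out in turn they ranged from -3.92 to -2.73, from -3.42 to -3.11 and from -3.50 to -2.93, in the same order. KRTAP4-9 ranged from -3.90 to -1.06 over all its alternatives, and was the 1 other KRTAP gene of chromosome 17 past the test, against 4 with no filter, where more genes are tested. With a mean FPKM of at least 1 no other KRTAP gene was left to test, so that alternative gave no value. Of the keratins on chromosome 17, between 2 and 3 passed with each sample left out, and 2 with no filter, where KRT222 was lost. The number of all genes past the test was between 8060 and 9362.

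Same-numbered samples of the 2 groups deviated together with correlations of 0.035, 0.094 and -0.023. Differently numbered samples did so with correlations from -0.114 to 0.072. With 3 samples per group these values cannot decide whether the replicate numbers pair the samples. With the replicate block the differences of the 3 genes were -3.22, -3.32 and -3.20, and 8341 genes passed against 8829 without the block. Counts of 14 to 51 in the rhSema3C samples limit the precision of KRTAP1-5 and KRTAP2-4.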

Other observations

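KRTAP genes on other chromosomes were close to the limit of detection. The 17 such genes measured, 1 of them the antisense RNA KRTAP5-AS1, had between 1 and 83 counts each over the 6 samples, and 0 passed the filter. They include ultrahigh-sulfur KRTAP5 genes on chromosome 11 and high glycine-tyrosine families on chromosome 21. Summed over these genes, the PBS samples held 105, 81 and 72 counts and the rhSema3C samples 36, 48 and 35 counts. KRTAP20-2, chosen after its values were seen, had 16, 14 and 23 counts in PBS and 7, 4 and 4 counts in rhSema3C. KRTAP5-2, chosen in the same way, had 24, 23 and 7 counts in PBS and 18, 5 and 6 counts in rhSema3C, with overlap between the groups. These genes were not tested.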
